A study of Homo sapiens with 16 samples.

Results

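The genes described here encode the cytoplasmic and nuclear machinery that shortens, decaps, degrades and proofreads messenger RNA. They were chosen by symbol from 3 deposited expression tables: the CNOT subunits of the CCR4-NOT deadenylase, PAN2, PAN3 and PARN, the decapping factors (DCP1A, DCP1B, DCP2, EDC3, EDC4 and PATL1), LSM1 to LSM7, the exonucleases XRN1 and XRN2, the exosome subunits with DIS3, and the UPF and SMG factors of nonsense-mediated decay. The choice gave 50 of the 12587 genes that any table lists. The study depleted the RNA methyltransferase METTL16, or the cap-binding protein eIF4E2, in A549, a line from a human lung carcinoma of the non-small cell type, and sequenced ribosome footprints with matched input RNA.

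All samples were A549 cells given fresh medium for 2 h and cycloheximide, which holds ribosomes on the mRNA, at 100 µg/mL for 5 min before harvest. The 8 samples gave 16 libraries, 1 input and 1 footprint library each. One table holds an untreated sample and 2 samples named sgM16, which the series text describes as hybrid clones made with 1 guide RNA against METTL16. The label of the untreated sample names no guide while the series text speaks of a non-targeting guide group, so guide delivery and cloning cannot be told apart from the loss of METTL16 in that table. The second table holds 1 sample with a scrambled hairpin (shscramble 1) and 1 with a hairpin against METTL16 (shM16), and the third holds shscramble 2 and 2 biological replicates of 1 hairpin against EIF4E2 (sheIF4E2). Nothing says that the other replicates came from separate cultures, so p-values measure only the spread between these samples.

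Most mRNAs die by a common route: CCR4-NOT and PAN2-PAN3 trim the poly(A) tail, the LSM1-7 ring and PATL1 bind the shortened end and recruit the DCP2 decapping enzyme, and XRN1 digests the body from its 5′ end. The exosome, a ring of EXOSC subunits that works with the nucleases DIS3 and EXOSC10, digests RNA from the 3′ end in nucleus and cytoplasm. UPF and SMG proteins find mRNAs on which translation ends too early, and SMG factors such as SMG5 and SMG6 then send them to cleavage or deadenylation.

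The sequences around the annotated transcription start are shown for members whose footprint to input ratio, described further on, stood well to one side of the typical gene in every sample where they were listed, or nearly so. They come from RefSeq on GRCh38.p14, 50 bases before the start in lower case and the first 30 transcribed bases in capitals, read 5′ to 3′ along the gene. The first 4 belong to mRNAs with many footprints for their input, and the last 3 to mRNAs with few. EXOSC8, the first of them, lies at chr13:37000736-37000815 on the plus strand. DIS3 lies at chr13:72781871-72781950 on the minus strand, EXOSC9 at chr4:121801273-121801352 on the plus strand and XRN2 at chr20:21303281-21303360 on the plus strand. SMG5 lies at chr1:156291487-156291566 on the minus strand, PATL1 at chr11:59669008-59669087 on the minus strand and CNOT9 at chr2:218568789-218568868 on the plus strand.
EXOSC8: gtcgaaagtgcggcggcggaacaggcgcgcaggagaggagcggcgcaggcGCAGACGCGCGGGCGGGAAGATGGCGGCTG
DIS3: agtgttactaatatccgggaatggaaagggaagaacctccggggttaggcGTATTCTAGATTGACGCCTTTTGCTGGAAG
EXOSC9: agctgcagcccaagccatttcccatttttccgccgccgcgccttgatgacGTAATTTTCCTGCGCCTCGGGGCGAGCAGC
XRN2: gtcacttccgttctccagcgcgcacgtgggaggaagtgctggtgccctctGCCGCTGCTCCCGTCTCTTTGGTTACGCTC
SMG5: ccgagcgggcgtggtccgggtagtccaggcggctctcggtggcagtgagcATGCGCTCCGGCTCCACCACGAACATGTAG
PATL1: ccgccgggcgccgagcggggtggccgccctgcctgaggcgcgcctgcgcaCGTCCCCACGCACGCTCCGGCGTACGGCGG
CNOT9: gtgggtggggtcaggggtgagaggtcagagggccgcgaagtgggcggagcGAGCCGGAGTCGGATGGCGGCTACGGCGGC

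Windows of 300 bases, 250 before and 50 after the start, were found for 42 of the 50 members. Their GC content had a median of 64.2%, against 65.3% in 10110 genes of the deposited tables with a window. On either strand the Sp1-type GC box GGGCGG was present in 78.6% of member windows and 70.3% of the table genes' windows, CCAAT in 42.9% and 36.5%, the ETS core CCGGAAG in 19.0% and 19.1%, and TATAAA in 2.38% and 5.78%. A start triplet ATG lay within the first 50 transcribed bases of 21 of the 42, against 33.0% of the table genes. EXOSC8, SMG5 and CNOT9 are among the 21, as their lines above show, and DIS3, EXOSC9, XRN2 and PATL1 are not.

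Values are TPM as the authors deposited them, reads per gene scaled by length and library, and a gene is listed in a sample only where its input reached 1 TPM. In a comparison of the depleted genes, METTL16 input RNA stood at 12.8 TPM in the untreated sample, 6.80 and 6.94 in sgM16, 11.1 in shscramble 1 and 3.50 in shM16. EIF4E2 stood at 21.4 TPM in shscramble 2 and at 7.69 and 3.57 in sheIF4E2. All these depleted samples were below their control, though neither replicated difference passed the test (limma, -0.81 log2 units with adjusted p 0.551 for METTL16 in sgM16, and -1.83 with adjusted p 0.59 for EIF4E2). The footprint libraries held 196995 to 876336 reads over listed genes and the input libraries 462706 to 699536, which left a median of 11 to 53.5 footprint and 20 to 32 input reads per member. The listed genes held 16.1% to 35.1% of the footprint TPM of a library, with shM16 lowest, and 44.6% to 49.8% of the input TPM. The epithelial keratins KRT8 and KRT18 and the NRF2-driven genes NQO1, AKR1B10 and ALDH1A1, known for high levels in A549, were listed in all 8 samples. The other epithelial markers were lower or uneven in input: KRT19 had 1.06 to 34.1 TPM in 8 samples, CDH1 1.25 to 79.4 in 7 and EPCAM 1.04 to 4.82 in 5. Of the markers of other cell types, PTPRC, CD3E, PECAM1, VWF, COL1A2 and ALB were not listed in any sample. COL1A1 had 1.95 to 32.0 TPM of input in 7 samples and LUM 1.07 to 4.87 in 5.

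Between 47 and 50 of the 50 genes were listed per sample. In the 3 controls (untreated, shscramble 1 and 2), the median member had 11.1 TPM of input and 7.37 TPM of footprints, close to the 12.5 and 6.34 TPM of the 9012 genes listed in all 3. The highest input levels, as medians over the controls, were those of EXOSC5, a ring subunit of the exosome, at 105.5 TPM, LSM2 at 83.9 TPM, LSM4 at 82.1 TPM, and XRN2, the nuclear 5′ exonuclease, at 64.7 TPM. At the other end stood the catalytic enzymes DCP2, PAN2, CNOT6L and XRN1. DCP2 was listed in all 3 controls, with a median of 2.06 TPM. The others were listed in only 1 control each. PAN2 had 2.09 TPM in the untreated sample, and CNOT6L had 2.18 TPM in shscramble 1, with XRN1 just above it there. In the remaining controls these genes did not reach the 1 TPM of input needed for listing. Their medians over all 3 controls therefore lay below that of DCP2. The role medians below use the single listed values. XRN1 was listed in 3 of the 8 samples, PAN2 in 4, CNOT6L in 5, and UPF3B and DIS3 in 7. By role, the control input medians ran from 4.21 TPM for the UPF factors and 4.51 for PAN2, PAN3 and PARN, through 8.43 for decapping, 11.5 for the exosome and 16.6 for SMG, to 26.4 for the LSM ring and 33.5 for the XRN pair. The ranges inside each role were wider than the steps between neighbouring roles, such as 2.64 to 105.5 TPM within the exosome and 3.83 to 45.8 within SMG.

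**Figure D1:**
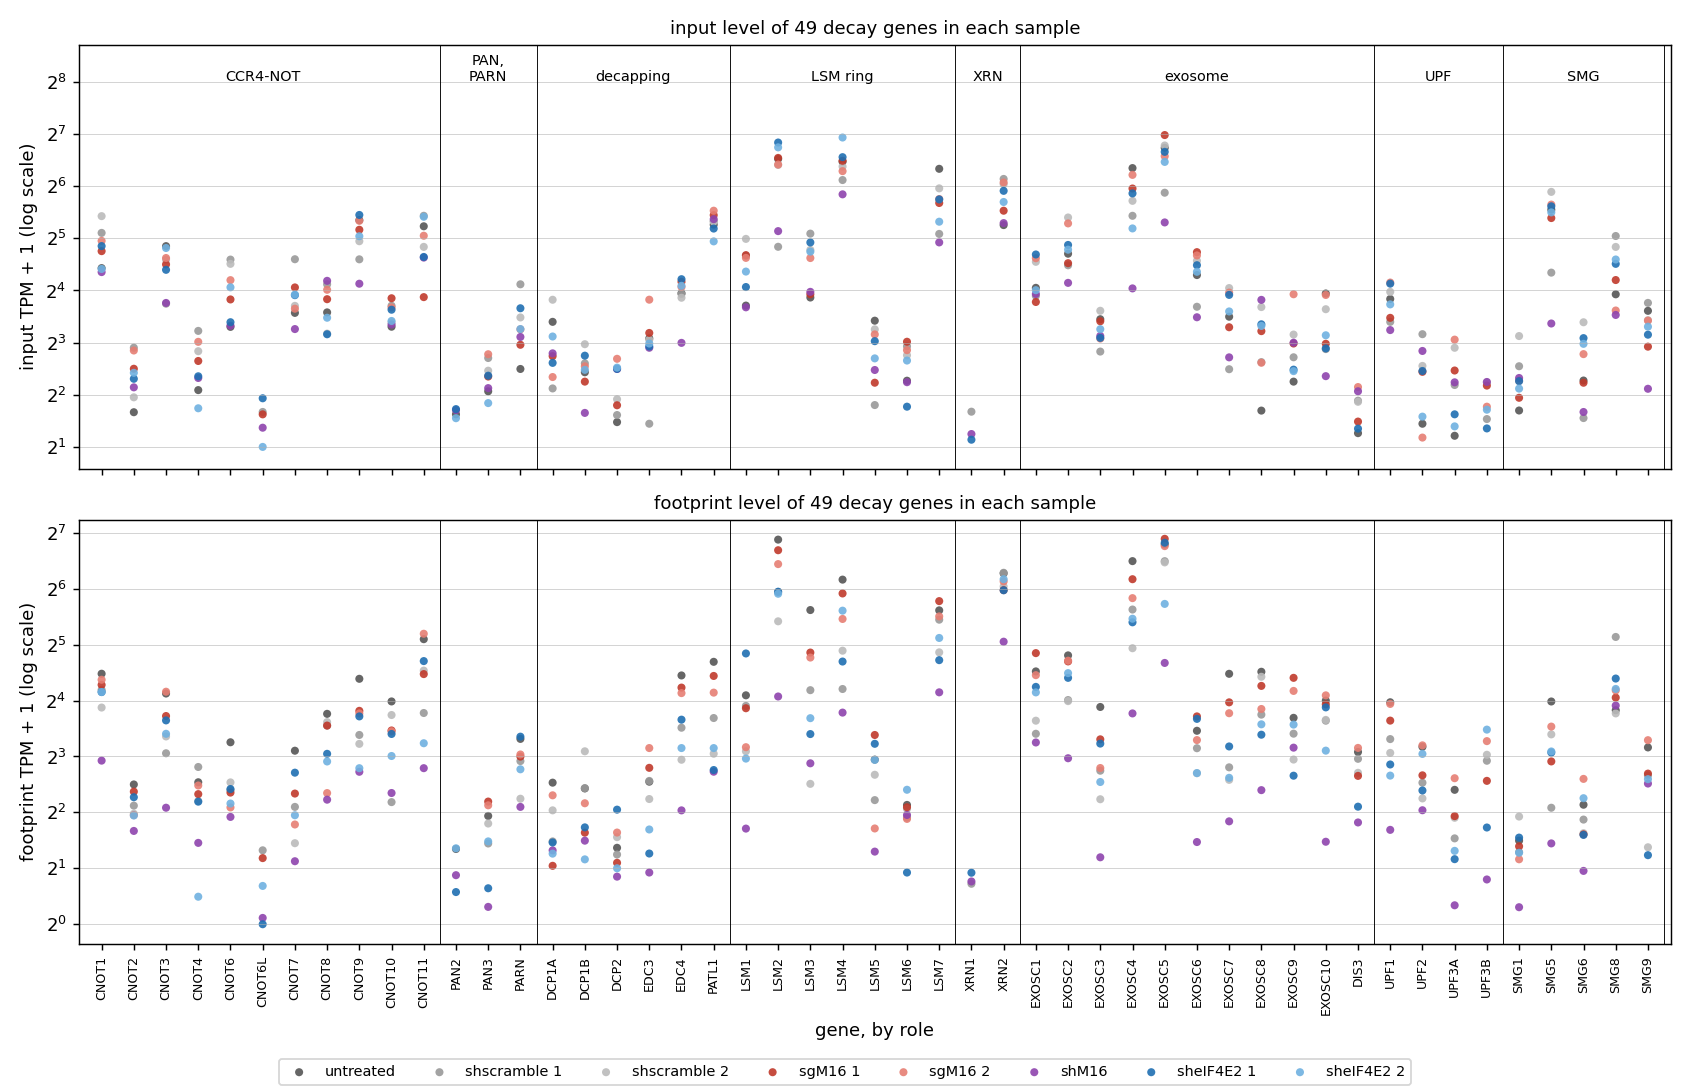
Input (top) and footprint (bottom) level of 49 of the 50 genes as TPM + 1 on a log scale, ordered by role, with 1 point per sample in which the gene was listed. EXOSC5, LSM2, LSM4 and XRN2 sit near the top of both panels, and the purple shM16 points lie lowest for most genes in the footprint panel.

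Enzymes that share a job were not equally abundant. XRN2 exceeded its cytoplasmic counterpart XRN1 in the 3 samples that listed both, by a median of 4.46 log2 units of input (difference XRN1 minus XRN2, -4.46, on log2(TPM + 1)). CNOT6 exceeded CNOT6L, its close paralog in the deadenylase, in 5 of 5 samples, by 1.46 to 3.06 log2 units of input. EXOSC10, the nuclear exosome nuclease, exceeded DIS3 in input in 7 of 7 samples (DIS3 minus EXOSC10, median -1.54). DCP1A and DCP1B, paralogous activators of DCP2, had no fixed order in input, with DCP1A higher in 5 of 8 samples.

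The footprint to input ratio, log2(footprint TPM + 1) minus log2(input TPM + 1), was set relative to the all-gene median of the same sample, the typical gene. That median was taken over genes listed in every sample of the table that averaged 1 TPM or more in each assay. It was subtracted because it ranged from -0.23 in the untreated sample to -1.31 in shM16. Counts over all 8 samples used the genes that met this mean in all 3 tables, 43 members among them. PAN3 and SMG1 were listed in all 8 samples but did not meet it. Of the 43 members, 9 had a ratio above the typical gene in every sample: EDC4, LSM2, XRN2, EXOSC1, EXOSC4, EXOSC5, EXOSC9, EXOSC10 and SMG8. That is 20.9% of the 43, against a background of 14.8% of 7256 genes. The ratio was below the typical gene in every sample for 6 of the 43 members, among them CNOT7, CNOT9, PATL1, LSM4 and SMG5, against a background of 16.7%. Neither share stood far from its background, so the order by role below describes these genes and no more. Whether reads were counted over whole exons or coding sequence is not given in the sources used here, so differences in this ratio between genes also carry the untranslated part of each mRNA.

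The exosome mRNAs had ratios above the typical gene. Among roles with 3 or more genes, theirs was not the highest median in every sample. The UPF median was higher in the untreated sample (1.42 against 0.52) and in sheIF4E2 2 (0.87 against 0.79). The SMG median was higher in shM16 (0.59 against 0.43). The median ratio of the 10 exosome genes listed throughout lay above the typical gene in 8 of 8 samples, between 0.40 and 0.93 log2 units, and 5 of these 10 genes were above it in every sample while none was below it in every sample. DIS3, the exosome's main nuclease, had a relative log2 ratio of 2.05 in the untreated sample, 1.64 and 2.09 in the scrambled hairpins, 1.66 and 1.61 in sgM16, 1.06 in shM16 and 1.67 in the sheIF4E2 sample that listed it. EXOSC9, a ring subunit, had 1.67 in the untreated sample, 1.25 and 1.03 in the scrambled hairpins, 1.91 and 0.85 in sgM16, 1.47 in shM16, and 1.09 and 2.07 in sheIF4E2. Both therefore stood above the typical gene in every library pair in which they were listed. Treated and control values were interleaved for EXOSC9. For DIS3 each treated value lay below its matched control, and sgM16 2 and shM16 lay below every control. The input behind these ratios was shallow, with 6 to 21 reads for DIS3 and 7 to 27 for EXOSC9. DIS3 overlaps BORA and EXOSC9 overlaps CCNA2, so shared reads make both uncertain. EXOSC6, another ring subunit, lay on the other side, below the typical gene in 6 of 8 samples (0.11 at its highest, -0.78 at its lowest).

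The SMG mRNAs were spread to both sides. Over the 5 of them counted in all 8 samples, without SMG1, their median ratio was above the typical gene in 3 of 8 samples, from -0.81 in shscramble 2 to 0.59 in shM16. SMG5, which brings decay enzymes to mRNAs bound by UPF1, had relative log2 ratios of -1.34 in the untreated sample, -1.69 and -1.25 in the scrambled hairpins, -1.99 and -1.51 in sgM16, -0.61 in shM16, and -1.62 and -1.46 in sheIF4E2. Its levels show how far apart the assays were: 45.8 TPM of input against 14.8 TPM of footprints in the untreated sample, and 58.3 against 9.52 in shscramble 2. SMG8, a regulator of the SMG1 kinase, went the other way, with ratios above the typical gene in 8 of 8 samples (0.13 to 1.69). The exosome median exceeded the SMG median in 7 of 8 samples, by 0.74 in the untreated sample, 0.84 and 1.21 in the scrambled hairpins, 1.07 and 0.01 in sgM16, and 1.38 and 0.56 in sheIF4E2. In shM16 the order was reversed at -0.16. No test was made of this difference, since it was noticed in the same samples.

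**Figure D2:**
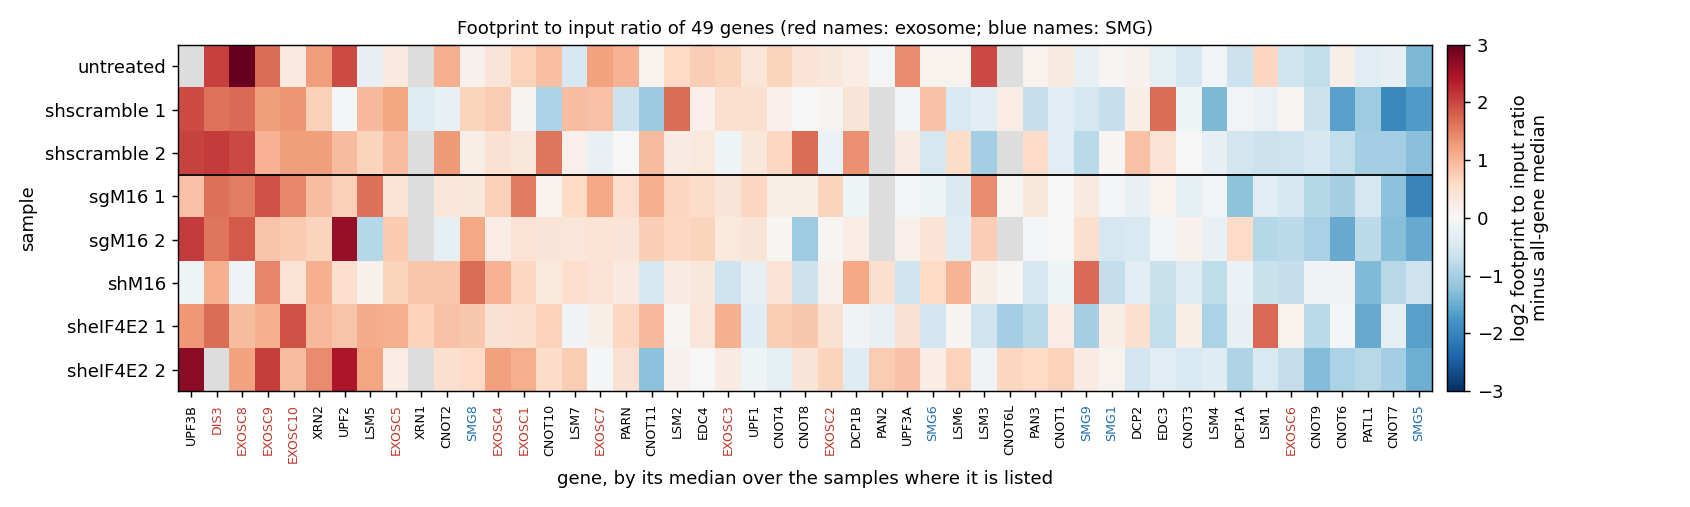
Relative log2 footprint to input ratio of 49 of the 50 genes (columns, ordered by their median) in each sample (rows, controls above the line), red above and blue below the all-gene median of the sample, grey where the gene was not listed. Exosome names, in red, gather at the left with DIS3, EXOSC8, EXOSC9 and EXOSC10, and SMG5 closes the right end with values from -1.99 to -0.61.

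Paralogs with alike input differed in ratio. CNOT8 and CNOT7 are alternative catalytic subunits of CCR4-NOT. CNOT8 had the higher ratio in 8 of 8 samples (CNOT7 minus CNOT8, median -1.25, from -2.70 to -0.18) and the higher footprint level in 8 of 8, while CNOT7 had the higher input in 5. UPF3B and UPF3A link UPF2 to the exon junction complex, and UPF3B had the higher ratio in 7 of 7 samples (UPF3A minus UPF3B, median -1.79), with the higher input on the side of UPF3A in 5. Those samples held only 2 to 7 input reads of UPF3B and 2 to 15 footprint reads of UPF3A. DCP1B exceeded DCP1A in ratio in 7 of 8 samples (DCP1A minus DCP1B, median -0.70). RefSeq names 2 pseudogenes of CNOT7 and 3 of UPF3A, so reads shared with those copies make both levels uncertain.

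The controls set the scale against which any treated difference has to be read. Over the 3 controls, the relative ratio of a member spanned a median of 1.04 log2 units, and it spanned 1 unit or more in 23 of 43 members (53.5%), against a median span of 1.00 and 3629 of 7256 over all genes. The 2 scrambled-hairpin samples differed from each other by a median of 0.53 log2 units per member (0.60 over all genes). The untreated sample stood apart from both scrambled hairpins for single members: CNOT6, the deadenylase, had a relative ratio of 0.18 there against -1.63 and -0.73, and LSM3 had 1.98 against -0.34 and -1.02.

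The METTL16 guide comparison asked what the decay genes do when METTL16 is reduced in the sgM16 clones. No member passed the test in input, in footprints or in the ratio (limma on log2(TPM + 1), Benjamini-Hochberg over 8505 genes, 46 members tested, lowest adjusted p 0.354 in input, 0.680 in footprints and 0.561 in the ratio). The background of calls was 0.0118% higher and 0.0% lower in input, and 0.0% each way in footprints and in the ratio. At an unadjusted p under 0.05, input had 4 members higher (UPF3A, EXOSC8, EXOSC9 and LSM1) and 0 lower, footprints 0 higher and 2 lower (CNOT6 and CNOT7), and the ratio 0 higher and 5 lower. Counts over all 8505 genes at that p were 743 higher and 174 lower in input, 170 and 435 in footprints, and 90 and 639 in the ratio. By direction alone, input was higher in both clones for 23 of 46 members and lower for 10 (background 43.3% and 29.6%), footprints for 4 and 28 (background 18.4% and 52.9%), and the ratio for 4 and 31 (background 18.0% and 55.1%). In bulk libraries such as these, fewer cells holding an mRNA and less of it per cell cannot be told apart.

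Values past a fixed size were few in this comparison. UPF3A, the weaker of the UPF3 pair in nonsense-mediated decay, had 1.32 TPM of input in the untreated sample, 4.52 and 7.33 in sgM16. Its input was thus above the control in both clones, but the untreated value rests on 3 reads and both scrambled hairpins, at 3.56 and 6.47 TPM, were also above it. The change was 1.55 log2 units (SE 0.50, limma adjusted p 0.354), and the ratio of recovered reads was 4.42 with a 95% exact interval of 1.37 to 22.66, which covers counting error only. It was the 1 member of 46 higher by 1 log2 unit or more in both clones (background 4.22%), and no member was lower by as much (background 0.847%). In footprints 0 members passed that size in either direction (background 1.28% higher, 1.81% lower).

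The footprint to input ratio was lower by 1 log2 unit or more in both clones for 5 members, CNOT6, EXOSC8, UPF3A, LSM1 and CNOT7, that is 5 of 46 (background 9.21%), and higher by as much for 0 (background 1.55%). The all-gene median of the ratio change was itself -0.33, and relative to it CNOT6, EXOSC8 and UPF3A kept a difference of 1 log2 unit in both clones (background 4.12%). CNOT6 had 8.86 TPM of input and 8.54 TPM of footprints in the untreated sample, 13.2 and 4.11 in sgM16 1, and 17.4 and 3.25 in sgM16 2. Input was higher and footprints lower in both clones. The CNOT6 ratio changed by -1.74 log2 units (SE 0.58, limma adjusted p 0.561), and the reads gave a fold of 0.26 (95% interval 0.12 to 0.56). LSM1, a ring subunit with 2 named pseudogenes, changed by -1.52 and CNOT7 by -1.33 (both limma, adjusted p 0.561 and 0.586). The relative ratios of CNOT7 in the clones, -1.23 and -1.27, also lay inside the range of the controls, -1.94 to -0.24. For LSM1, sgM16 2 at -0.86 lay below the lowest control, -0.65, and sgM16 1 at -0.33 did not.

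By role, the CCR4-NOT genes had the lowest ratio change in the sgM16 comparison, with a median of -0.93 against -0.33 over all genes and -0.54 over all members. Relative to the all-gene median, 8 of the 10 tested CCR4-NOT genes lay lower in sgM16 1 and sgM16 2 alike and 2 lay higher (background 35.0% lower, 35.0% higher). The 2 that were higher were CNOT11, with relative ratios of 0.10 in the untreated sample and 1.09 and 0.75 in the clones, and CNOT3. None of the 10 passed the test. Their median relative ratio in the clones, 0.06 and -0.14, lay inside the range of the controls, which was 0.23 in the untreated sample and -0.50 and 0.31 in the scrambled hairpins. In shM16 the change of the same role stood on the other side of its all-gene median, at 0.57. Exosome genes had a median of -0.36 and SMG genes of -0.27, both near the all-gene value.

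The METTL16 hairpin comparison has 1 sample on each side, so within its own table it has no replicate check and no p-value. Footprints per gene were lower throughout: the median change was -1.06 log2 units over all 8168 genes compared and -1.04 over the 45 members, of which 43 were lower (background 95.2%). As they stand, 23 members were lower by 1 log2 unit or more in footprints (background 54.4%), a share no larger than that of all genes. The shM16 footprint library has the lowest share of TPM in listed genes, 16.1% against 27.6% in shscramble 1, and the part of that share in the common shift was not tested. Values below are therefore relative to the all-gene medians, -0.32 in input, -1.06 in footprints and -0.76 in the ratio.

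In relative input, 4 of 45 members were higher by 1 log2 unit or more (background 6.04%) and 4 were lower (background 5.09%). EDC3, an enhancer of decapping, had 1.72 TPM in shscramble 1 and 6.47 in shM16, a relative change of 1.78, but 7.32 TPM in shscramble 2 and 7.47 in the untreated sample. The control in this comparison, with 3 reads, was the sample that stood apart for EDC3. EXOSC8 (1.52), DCP2 (1.21) and UPF3B (1.04) were the others that were higher. SMG9, which with SMG8 restrains the SMG1 kinase, had 12.6 TPM in shscramble 1 and 3.33 in shM16, and the other samples lay between 6.58 and 11.2 TPM. The shM16 value was thus the lowest of the 8 for SMG9, with a relative change of -1.32 and a read ratio of 0.27 (95% interval 0.14 to 0.49). SMG8 (-1.19), EXOSC4 (-1.07) and CNOT7 (-1.01) were lower too.

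In the relative ratio, 8 of 45 members were higher by 1 log2 unit or more (background 9.89%) and 5 were lower (background 7.05%). SMG9 had the largest positive difference among members, 2.26, as its footprints kept near control level (5.33 TPM in shscramble 1 and 4.72 in shM16) while its input was lower. CNOT6 (1.55), LSM6, CNOT10 (1.28), CNOT7 (1.13), SMG5 (1.10), CNOT2 (1.07) and SMG8 (1.05) followed. With both scrambled hairpins as controls CNOT10 was at -0.010 and CNOT2 at 0.31, with higher ratios of both in shscramble 2, and 6 members in place of 13 were past the size. EDC3 (-2.33), UPF3B (-2.07), EXOSC8 (-1.78), LSM2 (-1.41), a ring subunit shared with the nuclear LSM2-8 complex, and EXOSC3 (-1.09) were lower. Role medians were 1.05 for SMG, 0.57 for CCR4-NOT and -0.49 for the exosome relative to all genes. Relative footprints of 1 log2 unit or more were seen for CNOT10 (1.22) and LSM6 (1.11), higher (background 5.96%), and for LSM1 (-1.13), EXOSC10 (-1.10) and UPF3B (-1.06), lower (background 3.4%).

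With both scrambled hairpins as controls, in a limma fit over all samples in which shM16 is assumed to vary like the other groups, 3 exosome genes passed the threshold in shM16 footprints: EXOSC10 at -2.17 (adjusted p 0.0335), EXOSC5 at -1.81 (adjusted p 0.0364) and EXOSC4 at -1.51 (adjusted p 0.0418). These changes are as they stand and hold the shift common to all genes. Relative to the all-gene median, EXOSC10 was at -1.30 in that fit, and against shscramble 1 alone EXOSC10 was at -1.10, EXOSC4 at -0.80 and EXOSC5 at -0.76. EXOSC10 had 11.5 and 11.6 TPM of footprints in the scrambled hairpins and 1.78 in shM16. EXOSC5 had 89.0 and 87.6 TPM there and 24.5 in shM16. The shM16 values were the lowest of the 8 samples for all 3 genes. The same fit called 10.9% of 8021 genes lower and 0.0249% higher, and 3 of 45 members is a smaller share. It called no member in input or in the ratio (background 0.0% in both).

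**Figure D3:**
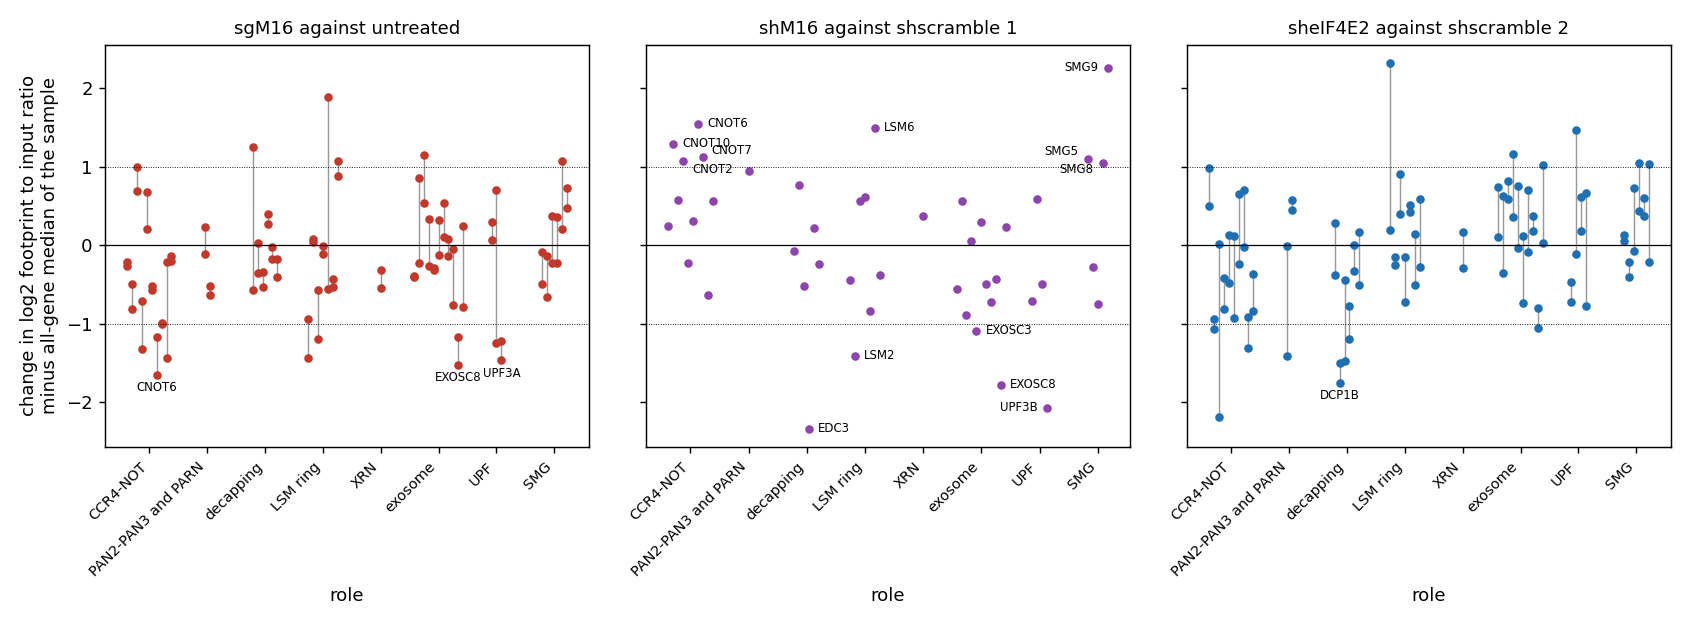
Change in the log2 footprint to input ratio minus the all-gene median of the sample, for each gene by role, in the 3 comparisons. Each point is 1 treated sample, grey lines join the 2 samples of a gene, dotted lines mark 1 log2 unit, and names mark genes past it in every treated sample. EXOSC8 is named below the line in both METTL16 panels, CNOT6 below it in the first and above it in the second.

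The eIF4E2 hairpin comparison asked what the decay genes do when eIF4E2, a cap-binding protein known to repress translation of the mRNAs it holds, is reduced. No member passed the test (limma, Benjamini-Hochberg over 8597 genes, 46 members tested, lowest adjusted p 0.621 in input, 0.175 in footprints and 0.521 in the ratio). The background of calls was 0.0116% higher and 0.0% lower in input, 0.57% higher and 0.0582% lower in footprints, and 0.0% each way in the ratio. At an unadjusted p under 0.05, input had 0 members higher and 2 lower (UPF3A and CNOT1), footprints 2 higher (LSM3 among them) and 2 lower (DCP1B and EXOSC8), and the ratio 1 higher (EXOSC2) and 0 lower. Over all 8597 genes the counts at that p were 266 higher and 355 lower in input, 1163 and 251 in footprints, and 688 and 119 in the ratio. By direction alone, footprints were higher in both samples for 17 members and lower for 13 (background 48.0% and 22.6%), and the ratio for 24 and 9 (background 52.8% and 19.4%).

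In sheIF4E2 input, 30 of 46 members were lower than shscramble 2 in both samples and 8 were higher (background 46.0% lower, 30.1% higher), with a median change of -0.27 against -0.10 over all genes. The 6 SMG genes were all lower in both, and 8 of 10 exosome genes were. Relative to the all-gene median this held for 4 of the 6 and 8 of the 10. These directions rest on shscramble 2 as the control. The sheIF4E2 values lay above shscramble 1 for EXOSC5 (100.0 and 87.4 TPM against 57.7) and SMG5 (48.0 and 44.2 against 19.3). They lay below it for EXOSC9 (4.59 and 4.48 against 5.59) and SMG8 (21.8 and 23.2 against 32.0). UPF3A had 6.47 TPM in shscramble 2 and 2.09 and 1.63 in sheIF4E2, a change of -1.39 (SE 0.50, limma adjusted p 0.621) and a read ratio of 0.29 (95% interval 0.11 to 0.72). It was the 1 member lower by 1 log2 unit in both samples (background 2.61%), 0 were higher by as much (background 2.38%), and shscramble 1, at 3.56 TPM, also lay above both. CNOT1, the scaffold of CCR4-NOT, had 42.0 TPM in shscramble 2 and 27.9 and 20.3 in sheIF4E2, a change of -0.79 (SE 0.33, limma adjusted p 0.676). SMG1, the kinase that phosphorylates UPF1, had 7.73 TPM in shscramble 2 and 3.79 and 3.34 in sheIF4E2.

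On the recovered reads with limma's voom weights, CNOT1 (-0.82, adjusted p 0.0253) and SMG1 (-1.11, adjusted p 0.0246) passed the threshold in input, as did 2.31% of all genes in that direction (0.791% in the other, with 0 members). SMG1 has 7 named pseudogenes and CNOT1 overlaps SETD6, so shared reads make both uncertain. Against both scrambled hairpins neither passed (limma, adjusted p 0.653 for CNOT1 and 0.706 for SMG1), with shscramble 1 at 33.4 TPM for CNOT1 and 4.85 for SMG1.

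In sheIF4E2 footprints, DCP1B had 7.53 TPM in shscramble 2 and 2.32 and 1.23 in the depleted samples, while shscramble 1 and the untreated sample had 4.40 and 4.38. Both depleted samples were below all 3 controls, on 3 and 2 reads. The change was -1.65 log2 units (SE 0.50, limma adjusted p 0.175; read ratio 0.23, 95% interval 0.06 to 0.71), and DCP1B was the 1 member of 46 lower by 1 log2 unit in both (background 1.56%), with 0 higher (background 7.94%). Its ratio changed by -1.29 (SE 0.70), the 1 member of 46 past the size in that quantity (background 2.5%), with 0 higher (background 10.1%). Decapping genes as a role had a median ratio change of -0.23 and CCR4-NOT genes of -0.17, against 0.32 over all genes, 0.66 for the exosome and 0.70 for SMG. CNOT1 stood against its role with a ratio change of 1.07 (SE 0.47, limma adjusted p 0.542).

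EXOSC8, a ring subunit of the exosome, was the 1 member whose relative ratio was lower by 1 log2 unit or more in all 3 METTL16-depleted samples. Of the 43 members counted over all 8 samples this is 1, and of all 7256 genes 0.234% did the same. Its input was 2.24 TPM in the untreated sample, 8.32 and 5.12 in sgM16, 5.17 in shscramble 1 and 13.1 in shM16. Input was above the matched control in each of the 3, by 1.52 and 0.92 log2 units in sgM16 and 1.19 in shM16. The control shscramble 2, at 11.8 TPM, lay above both clones, so the controls together spanned 2.24 to 11.8 TPM and only shM16 lay outside them. Its footprints were 21.9 TPM in the untreated sample, 18.2 and 13.4 in sgM16, 12.4 in shscramble 1 and 4.27 in shM16, below the matched control each time. These footprint changes hold the shift common to all genes. Relative to the all-gene median, those of EXOSC8 were -0.04 and -0.45 in sgM16 and -0.29 in shM16. In the eIF4E2 table its footprints were 20.5 TPM in shscramble 2 and 9.48 and 10.9 in sheIF4E2, a change of -0.94 (SE 0.36, limma adjusted p 0.262), and relative to the all-gene median both samples were lower by 1 log2 unit or more (2 of 46 members with DCP1B, background 2.99%).

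The depth behind EXOSC8 was small. Its input held 3 reads in the untreated sample and 6 in shscramble 1, against 13, 7 and 27 in the METTL16-depleted samples. Its ratio in the untreated sample, 3.05 relative to the all-gene median, was the highest of the 8, and shM16, at -0.12, was the lowest and the only one below 0. The sgM16 change in ratio was -1.68 (SE 0.61, limma adjusted p 0.561; fold of read ratios 0.25, 95% interval 0.05 to 0.95), and the shM16 fold was 0.14 (0.04 to 0.43). The sgM16 interval included the all-gene median fold of 0.78, and the shM16 interval lay below its all-gene median of 0.51. EXOSC8 overlaps SUPT20H and has 1 named pseudogene, and the strand setting of the counting is not given in the sources used here, so reads of these cannot be told apart.

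**Figure D4:**
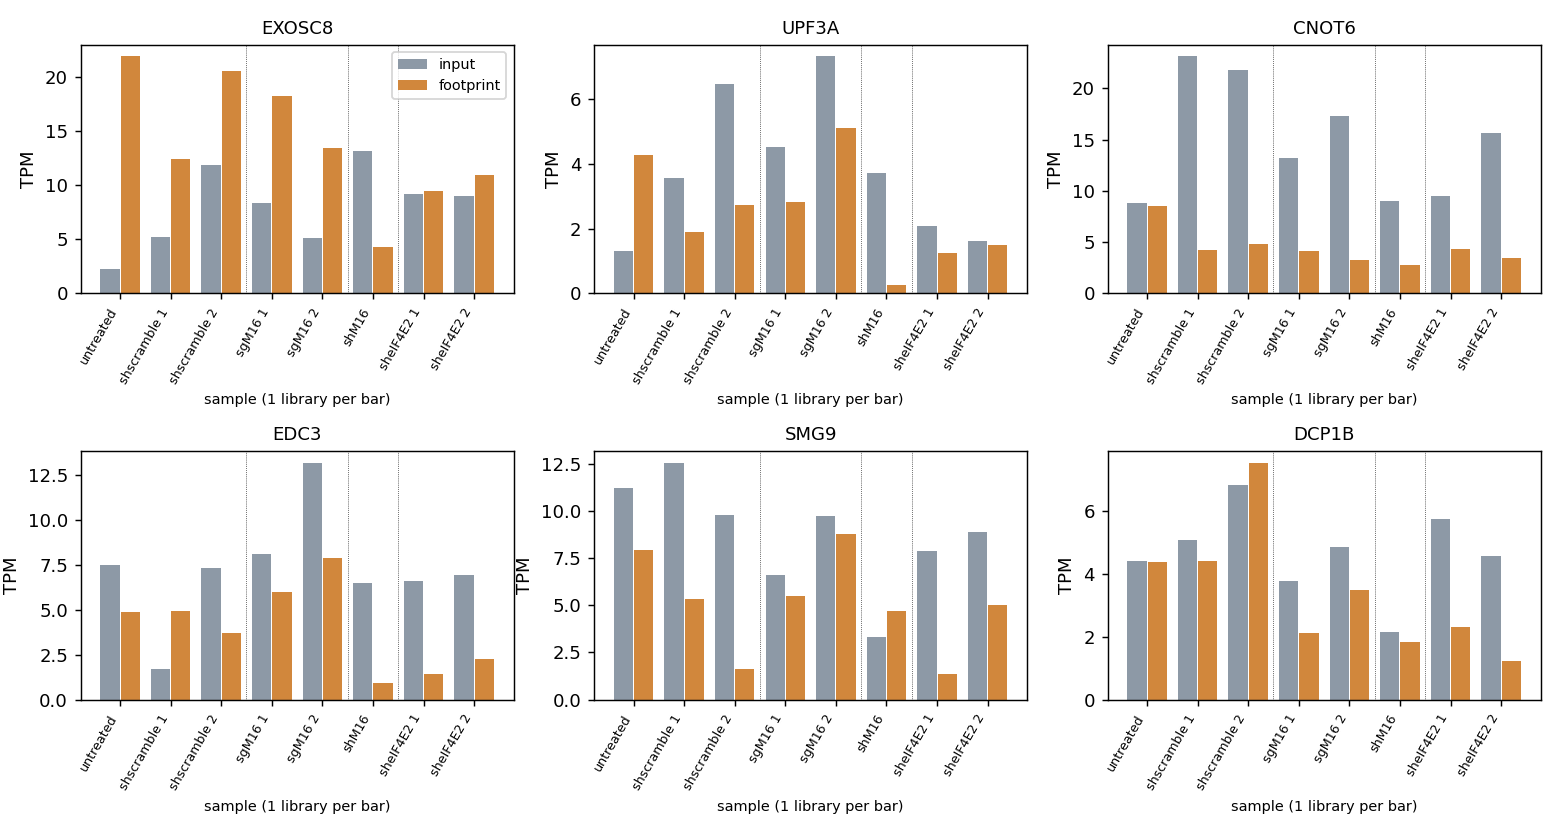
Input (grey) and footprint (orange) TPM in each of the 8 samples for 6 genes, 1 library per bar. EXOSC8 footprints exceed input in every sample except shM16, where 13.1 TPM of input stands against 4.27 TPM of footprints, and the EDC3 input bar of shscramble 1, 1.72 TPM, is the shortest input bar of its panel.

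The direction relative to the all-gene median was compared over the 3 METTL16-depleted samples together. Input was higher in all 3 for 8 of 43 members (18.6%, background 18.6%) and lower for 7 (16.3%, background 20.4%). Footprints were higher for 3 (7.0%, background 15.9%) and lower for 5 (11.6%, background 17.9%). The ratio was higher for 3, CNOT11, SMG8 and SMG9 (7.0%, background 16.7%), and lower for 8 (18.6%, background 17.4%). The shares were near the background for higher input and for the lower ratio, and below it for lower input, for footprints and for the higher ratio, and no test was made of these differences.

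Proteins that work with this machinery gave no call either. Of the cofactors, such as the BTG and TOB adaptors of CCR4-NOT, the exosome helicase MTREX and the exon junction subunits, 52, 49 and 53 were compared in the sgM16, shM16 and sheIF4E2 tables, and 0 passed in the tables that have a test. MTREX, which feeds RNA to the nuclear exosome, had the largest input change past the size in sgM16, 2.07 and 1.47 in the clones (mean 1.77, SE 0.42, limma adjusted p 0.26), with a ratio change of -2.09. BTG3 followed with 1.57 and 1.42 in sgM16 input and a ratio change of -2.12, and its input was also higher in sheIF4E2, by 1.69 and 1.44. Past 1 log2 unit in both sgM16 clones were 4 of 52 cofactors in higher input (background 4.22%) and 5 in a lower ratio (background 9.21%). In sheIF4E2, 2 of 53 were past that size in higher input (background 2.38%). In sheIF4E2 footprints EIF4ENIF1, the 4E-T protein that ties eIF4E-family proteins to decapping, was higher by 1.90 and 1.64 (SE 0.48, limma adjusted p 0.15). BTG2 was higher there by 2.63 and 1.02 (SE 0.68, limma adjusted p 0.25). EIF4ENIF1 and BTG2 were the 2 of 53 cofactors past that size in higher sheIF4E2 footprints, a smaller share than that of all genes (background 7.94%).

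mRNAs known to be kept low by nonsense-mediated decay served as readouts of the UPF and SMG factors. Of them 15 were compared in sgM16, 12 in shM16 and 15 in sheIF4E2, and 0 passed in the tables with a test. Their median input change was 0.15, -0.12 and -0.31, against 0.10, -0.32 and -0.10 over all genes. None was past 1 log2 unit in both samples of sgM16 or sheIF4E2 input. In shM16 input, GADD45A, a stress gene whose mRNA this pathway degrades, was higher by 1.03 as it stands and 1.36 relative to all genes, and GADD45B by 1.22 relative to all genes. They were 2 of 12 past that size (background 6.04%), and the intervals of their read ratios, 0.86 to 6.49 and 0.55 to 11.5, included 1. Set against the all-gene median read ratio of 0.78, the GADD45A interval lay above it and the GADD45B interval included it. Of the 12 readouts, 2 had intervals above that median and 1 below it (background 11.6% and 10.3%). CARS1 (-0.94 as it stands, read ratio 0.46, 95% interval 0.25 to 0.84) and ATF4 (-0.73, read ratio 0.60, 0.46 to 0.78) went the other way. The CARS1 interval included the all-gene median read ratio as well.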

How the data were processed

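Per the labels' protocols, A549 lysates gave chemically fragmented input RNA and RNase I footprints. The submitters' processing notes name cutadapt 2.8, Bowtie 1.3.0, Bowtie2 2.2.5, STAR 2.7.5c, featureCounts 2.0.1 and GRCh38, without roles. The authors deposited TPM per gene in 3 tables, and each lists a gene in a sample from 1 TPM of input on. The sources used here do not give gene lengths, the counted feature or its strand.

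Whole reads were recovered from the TPM steps (11892 of 11892 genes with at least 2 values) and gave exact 95% Clopper-Pearson or Fisher intervals, which cover counting error only. Differences were tested within each table with limma 3.58.1 (R 4.3.3) on log2(TPM + 1), group means over both assays, eBayes with trend, 2 residual degrees of freedom, and Benjamini-Hochberg adjustment over all genes that averaged 1 TPM or more in each assay (threshold 0.05). The ratio change is the footprint minus the input change. Named genes included those past the test, or past 1 log2 unit in every treated sample. Members with the highest or lowest change, level or ratio were named too, as were CNOT1, DCP2, XRN1 and DIS3 in any case. Input and footprint libraries of a number come from the same sample, and their deviations correlated with r = 0.147 across genes in sgM16 and -0.016 in sheIF4E2. Values of 1 member are not reported singly here. Scripts were tested on simulated data. Members and lists were chosen with earlier results of these data known. Alternatives were another pseudocount, filter, fold and scaling, voom on reads, both scrambled controls, a fit of all samples, a replicate block and leaving out each replicate.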

Additional observations from a re-analysis of the deposited data

Results flagged for a closer look

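CNOT6, a catalytic subunit of CCR4-NOT, went opposite ways in the METTL16-depleted samples. Relative to the all-gene median of each sample, its footprint to input ratio was higher by 1.55 log2 units in shM16 and lower in both sgM16 clones (-1.17 and -1.65). The difference between these effects was not tested. The matched controls differed as well: the relative ratio of CNOT6 was 0.18 in the untreated sample and -1.63 in shscramble 1, and their part in the result was not tested.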

How the results depend on the processing

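Of 112 alternative values for counts over the members, 79 stayed within 1.5 times the reported count and 33 moved. The count of members past the test stayed at 0 in the sgM16 and sheIF4E2 comparisons under every alternative run, except that voom on the recovered reads gave 2 in sheIF4E2 input. With the replicate number as a block the count was 0 in both ratio comparisons (lowest limma adjusted p 0.353 in sgM16 and 0.578 in sheIF4E2). The block changed no call. Deviations of the scrambled hairpins and sheIF4E2 by number were not correlated (r of -0.005 in input and -0.034 in footprints). This cannot settle whether the numbers pair samples, since input and footprints of the same sheIF4E2 sample gave r of -0.016. Members 1 log2 unit from the all-gene median in shM16 went from 8 to 3 in input with a pseudocount of 5 and to 4 with a mean of 5 TPM. In footprints they went from 5 to 11 with a pseudocount of 0.1, and to 2 with a pseudocount of 5, a mean of 5 TPM or both scrambled hairpins. In the ratio they went from 13 to 6 with a pseudocount of 5 or both scrambled hairpins, and to 4 with a mean of 5 TPM. At 1.5-fold, members past the size in every treated sample went from 1 to 7 (sgM16 input), 0 to 3 (footprints) and 5 to 13 (ratio), from 1 to 5, 1 to 5 and 1 to 9 in sheIF4E2, and from 9 to 23 in shM16 input. Relative to the all-gene median the counts were 3 in the sgM16 ratio, 2 in sheIF4E2 footprints, 5 against 23 in shM16 footprints and 13 against 21 in the shM16 ratio. Without one of the replicates they were 4 to 5, 2 to 5 and 8 to 11 in sgM16, and 3 to 4, 5 to 9 and 8 to 13 in sheIF4E2 (input, footprints, ratio), since a single sample then has to pass. Of 277 changes of single members, 249 moved by less than 0.5 log2 units, 27 by more, and 1 reversed: the CNOT10 ratio in shM16 became -0.010 with both scrambled hairpins. The cause of these moves was not tested.

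The members' depth limits these comparisons: a median of 11 to 53.5 footprint and 20 to 32 input reads per member gives read ratios with intervals as wide as 1.37 to 22.66 (UPF3A), and single controls have no spread of their own.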
